A study of Caenorhabditis elegans and Caenorhabditis briggsae
Caenorhabditis elegans with 146 samples.

Results

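Messenger RNA of hermaphrodite and mixed sex *C. elegans* embryos was compared at the comma stage, when the embryo begins to bend and most of its tissues are being formed. The comparison uses 6 of the 146 samples of the series, chosen by the strain and stage in their labels. The hermaphrodite group is 3 libraries of N2, the wild-type strain, whose self-fertilized broods are almost wholly XX hermaphrodites. The mixed sex group is 3 libraries of BS553, which carries *fog-2(oz40)* on chromosome V. A *fog-2* hermaphrodite makes no sperm and has to mate with males, so its brood holds XX females and XO males. The proportion of XO embryos was not measured in the files used here. In both groups young adults from synchronized cultures were bleached, and the early embryos released from them were aged for 4 hours in buffer. Each library is a pool of whole embryos from several collections, so fewer cells of a type and less RNA per cell cannot be told apart. Every hermaphrodite library is N2 and every mixed sex library is *fog-2(oz40)*, so sex and strain cannot be told apart either.

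In *C. elegans* sex is set by the number of X chromosomes relative to the autosomes. X signal elements such as *sex-1*, *fox-1* and *ceh-39* repress *xol-1*, the male-promoting switch gene on the X, in XX embryos. Where *xol-1* is off, *sdc-2* recruits the dosage compensation complex, a condensin-like complex that lowers transcription of both hermaphrodite X chromosomes, and represses *her-1*, the secreted signal for male development. The study asked how X expression is balanced between the sexes during development. The question taken up here is which genes, families and functions differed between these embryos by more than the X chromosome did as a whole.

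Expression was read as FPKM, fragments per kilobase of transcript scaled to the fragments mapped in the library, and tested on log2(FPKM + 0.1) with limma after scaling. A ratio below is the log2 of hermaphrodite over mixed sex on that scale, which understates changes of weakly expressed genes. Of 20411 genes, 11473 had a mean above 1 FPKM over the groups and were tested, 1716 of them on the X. From the steps between low values, the mixed sex libraries held 35.6 to 47.2% and the other hermaphrodite libraries 74 and 92.4% of the reads of hermaphrodite replicate 1. The number of tested genes listed at 0 FPKM was 32 to 49 in the hermaphrodite libraries and 61 to 155 in the mixed sex libraries. Weakly expressed genes therefore rested on fewer reads in the mixed sex group. The mean correlation of each library with the others of its group was not lower there, at 0.95, 0.96 and 0.95. In hermaphrodites it was 0.95, 0.95 and 0.91.

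The markers placed all 6 libraries well past the early embryo. The summed FPKM of 7 maternal factors was 47.9 to 156 in hermaphrodites and 119.8 to 194 in mixed sex embryos, against 3330 to 4955 in the 6 early embryo libraries. The sum of 5 epidermal markers was 869 to 1073 and 1096 to 1118, without overlap. The largest part was *dlg-1*, at 406 to 524 FPKM in hermaphrodites and 545 to 574 FPKM in mixed sex embryos. The means of *lin-26* and *nhr-25* were also lower in hermaphrodites, and those of *elt-1* and *elt-3* slightly higher. The 4 body wall muscle markers summed to 606 to 1128 and 513 to 678, and overlapped. The 4 intestine markers summed to 190 to 252.6 and 159.6 to 184.4, without overlap. Of these, *ifb-2* had the higher mean in hermaphrodites, and *elt-2*, *elt-7* and *ges-1* the lower. The sums of 3 pharynx and 4 neuron markers overlapped. Markers of the adult body and germ line were low in both groups, with sums of 18.4 to 26.7 and 19.95 to 27.4 over 5 genes. The sperm gene *msp-3* was at 0 in most of the libraries. Cuticle genes of stages after hatching were lower still, with sums over 3 genes of 0.371 to 0.855 in hermaphrodites and 1.25 to 3.75 in mixed sex embryos, and these ranges did not overlap. The part of these marker differences in the results was not tested.

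1 library stood apart. A stage score was taken from the 500 genes that rise most and the 500 that fall most between N2 early embryos and L1 larvae, as the log2 deviation of the rising genes minus that of the falling genes. In the hermaphrodite libraries it was -0.47, -0.45 and 2.15, and in the mixed sex libraries 0.35, -0.83 and -0.75, in the order of their replicate numbers. The first principal component carried 54.8% of the variance, with hermaphrodite replicate 3 alone at its upper end. This library also had the lowest mean correlation with the others of its group, at 0.91, against 0.95 for the other hermaphrodite libraries. The pharyngeal myosin gene *myo-2*, a marker of muscle differentiation, was 2.16, 2.02 and 24.5 FPKM in hermaphrodites and 7.21, 2.32 and 2.19 FPKM in mixed sex embryos. Results that rest on hermaphrodite replicate 3 are therefore given with and without it.

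**Figure D1:**
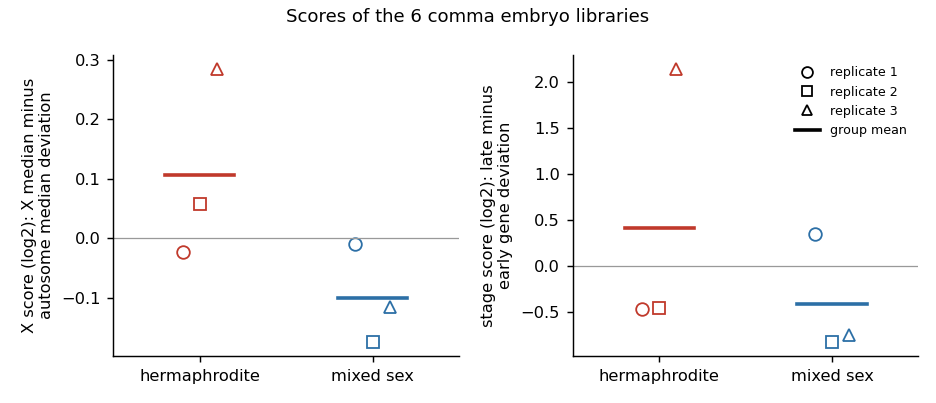
Scores of the 6 comma libraries in log2 units, each symbol a library, with bars at the group means. Hermaphrodite replicate 3 has the highest stage score, 2.15, and the highest X score, 0.29, of the 6.

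The strain labels were checked on *fog-2*, an F-box gene of germ line sex determination. Its level was 4.23, 3.95 and 3.01 FPKM in the hermaphrodite libraries and 1.33, 1.03 and 0.14 FPKM in the mixed sex libraries, with no overlap. The ratio was 2.45 with a standard error of 0.70, and it did not pass limma (adjusted p = 0.43). In early embryos the same gene was at 25.9 to 33.7 FPKM in N2 and 0.829 to 1.201 FPKM in *fog-2(oz40)*. Its neighbouring paralog *ftr-1*, with which *fog-2* may share reads, was 3.74, 2.73 and 2.89 FPKM against 2.88, 3.02 and 3.55 FPKM. The groups overlapped for *ftr-1*, and its ratio was 0.04.

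The X chromosome as a whole was slightly higher in hermaphrodites. The median ratio was 0.18 over the X genes and -0.03 over 9757 autosomal genes, a shift of 0.21. By library, the median X level relative to the autosomes was -0.02, 0.06 and 0.29 in hermaphrodites and -0.01, -0.17 and -0.12 in mixed sex embryos. Hermaphrodite replicate 1 fell below mixed sex replicate 1, so the groups overlapped, and the standard deviation within groups was 0.13. The shift, the median of the X gene ratios minus that of the autosomal gene ratios, was recomputed over every division of the libraries. This exact two-sided permutation test gave p = 0.1, the smallest value that 3 libraries against 3 allow. Leaving out hermaphrodite replicate 3 gave a shift of 0.12 (exact permutation p = 0.2), and leaving out hermaphrodite replicate 1 gave 0.27.

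The difference was spread over many X genes. Genes are called apart below where the levels after scaling of the libraries did not overlap between the groups, while the FPKM printed are as deposited. Over all tested genes 22.1% were apart, 11% higher and 11.1% lower in hermaphrodites. On the X, 308 genes, or 17.9%, were apart with hermaphrodites higher and 92, or 5.36%, with hermaphrodites lower. On the 5 autosomes the corresponding shares were 8.26 to 11.5% and 10.4 to 13.6%. Autosomal medians lay between -0.06 on chromosome III and 0.02 on chromosome V. All ratios called relative below have the median of their own class, X or autosomes, subtracted.

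Beyond these medians few genes passed the test. With a Benjamini-Hochberg adjusted p under 0.05 in limma, 8 of 11473 genes changed (0.0697%), 5 higher in hermaphrodites (0.0436%) and 3 lower (0.0261%). 6 of the 8 lie on chromosome V, 1 on chromosome II and 1 on the X. Chromosome V, which carries the *fog-2* mutation, holds 2072 of the 11473 tested genes. The part of the mutation in these calls was not tested. At an unadjusted p under 0.05 there were 1320 genes (11.5%), 819 higher (7.14%) and 501 lower (4.37%).

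The gene *her-1* was the clearest known sex gene among them. It stood at 6.15, 4.33 and 1.23 FPKM in hermaphrodites and at 111, 163 and 136 FPKM in mixed sex embryos. The mean was 34.97-fold lower in hermaphrodites. Its ratio was -5.28 with a standard error of 0.51 (limma, adjusted p = 0.029). Its neighbours on chromosome V did not share the difference: *ZK287.7* was 5.58 to 7.26 FPKM and 6.99 to 8.69 FPKM in the 2 groups, and *xbx-6* 124 to 156 FPKM and 145 to 152 FPKM. Without hermaphrodite replicate 3, in which *her-1* was lowest, the adjusted p was 0.00025. It rose to as much as 0.29 when another library was left out, while the ratio stayed between -5.71 and -4.68.

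On the X, *Y62H9A.9*, an uncharacterized gene, showed the opposite of the chromosome's shift. It was at 0.18, 0 and 0.12 FPKM in hermaphrodites and at 10.7, 15.3 and 11.9 FPKM in mixed sex embryos. The ratio was -6.04 with a standard error of 0.50, or -6.22 relative to the X median (limma, adjusted p = 0.017). It was also low in N2 early embryos, at 0.06 to 0.19 FPKM, and higher in mixed sex early embryos, at 3.81 to 6.44 FPKM. With 1 library left out at a time it passed the test in 2 of 6 fits, those lacking hermaphrodite replicate 2 or 3.

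*F47B8.10*, an uncharacterized gene on chromosome V, was the third gene lower in hermaphrodites. It had 2.85, 3.25 and 2.76 FPKM in hermaphrodites and 12.8, 15.5 and 13.98 FPKM in mixed sex embryos, a 4.77-fold difference of means. The spread within groups was small, with a ratio of -2.15 and a standard error of 0.19 (limma, adjusted p = 0.019). Of the fits that left out 1 library, only that without hermaphrodite replicate 3 passed (adjusted p = 0.015).

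The 5 genes higher in hermaphrodites were mostly close to 0 in the mixed sex libraries. *K07C5.13*, on chromosome V, was at 130.5, 70.6 and 88.2 FPKM in hermaphrodites and at 0 in the table for all 3 mixed sex libraries (limma, adjusted p = 0.0001). It passed in all 6 fits that left out 1 library. In early embryos, however, it was listed at 0 in N2 replicate 1 and in mixed sex replicates 2 and 3, and at 68.8 to 94.3 FPKM in the other 3 libraries, with no regard to group. Its zeros in the comma libraries can therefore not be taken as absence.

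*C16C4.17*, on chromosome II, was at 7.85, 12.7 and 10.6 FPKM in hermaphrodites and also listed at 0 in the mixed sex libraries (limma, adjusted p = 0.0064). In early embryos it was detected in all 6 libraries, at 97.25 to 190.4 FPKM in N2 and 39.7 to 181 FPKM in mixed sex embryos. It no longer passed without hermaphrodite replicate 1 (adjusted p = 0.12) or replicate 2 (adjusted p = 0.25) in the same limma fit.

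*F56A4.2* and the C-type lectin gene *clec-209*, both on chromosome V with 23 genes between them, were in fixed proportion in every comma library. *F56A4.2* was at 22.1, 16.203 and 20.7 FPKM in hermaphrodites and at 0.76, 0.31 and 0.59 FPKM in mixed sex embryos, with a ratio of 5.04 and a standard error of 0.35. *clec-209* was at 21.5, 15.9 and 20.2 FPKM and 0.73, 0.30 and 0.57 FPKM, with the same ratio and error (limma, adjusted p = 0.0064 for each). Their reads cannot be told apart, so this pair among the 8 calls may be 1 signal. Both lost the call without hermaphrodite replicate 1 (adjusted p = 0.11), hermaphrodite replicate 2 (0.084) or mixed sex replicate 3 (0.069).

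*him-5*, which promotes meiotic crossing over on the X chromosome, was at 17.98, 6.45 and 14.2 FPKM in hermaphrodites and 0.12, 0.39 and 0.32 FPKM in mixed sex embryos. The ratio was 5.126 with a standard error of 0.53 (limma, adjusted p = 0.042). The call did not outlast the loss of any library, with adjusted p from 0.056 to 0.39, although the ratio stayed between 4.78 and 5.58. In early embryos *him-5* was at 100.1 to 139.8 FPKM in N2 and 73.5 to 378 FPKM in mixed sex embryos, where the groups overlapped. *D1086.8*, with 1 gene between it and *him-5*, varied without regard to group, from 4.35 to 41.4 FPKM over the comma libraries.

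**Figure D2:**
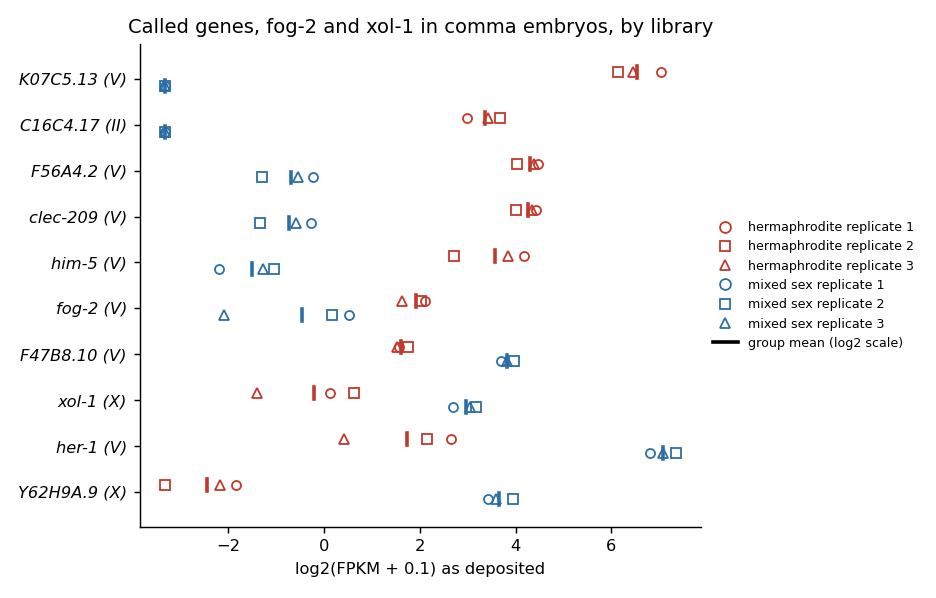
Level as log2(FPKM + 0.1) of the 8 genes with an adjusted p under 0.05, and of *fog-2* and *xol-1*, in each of the 6 comma libraries (symbols), with bars at the group means. No gene among the 8 overlaps between groups, and *her-1*, *Y62H9A.9* and *F47B8.10* are the 3 that are lower in hermaphrodites.

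Of 16 tested members of the sex determination pathway 1, *her-1*, passed the test. The groups did not overlap for 1 gene that was higher and 6 that were lower in hermaphrodites, against 11% and 11.1% of all genes. The median relative ratio was -0.10, and -0.17 without hermaphrodite replicate 3. The list score, the mean log2 deviation of its members from their own means over the 6 libraries, was -0.19, -0.05 and -0.52 in hermaphrodites and 0.24, 0.37 and 0.16 in mixed sex embryos. It was 1 of 3 lists among 35 whose library scores did not overlap.

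*xol-1* was 0.99, 1.44 and 0.28 FPKM in hermaphrodites and 6.33, 8.90 and 8.20 FPKM in mixed sex embryos. No hermaphrodite library reached the lowest mixed sex library. Its ratio of -3.14 with a standard error of 0.52 did not pass limma (adjusted p = 0.21). It passed without hermaphrodite replicate 3 (ratio -2.59, limma adjusted p = 0.04), with library weights (0.03) and with the stage score as a covariate (0.024), and in the other fits adjusted p was 0.054 to 0.78. In early embryos *xol-1* was at 9.26 to 14.3 FPKM in N2 and 11.8 to 16.3 FPKM in mixed sex embryos, so that there the groups overlapped.

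The members downstream of *her-1* differed little. *tra-2*, the membrane receptor that *her-1* inhibits, was 28.1, 29.8 and 15.1 FPKM in hermaphrodites and 33.9, 39.7 and 32.9 FPKM in mixed sex embryos, a ratio of -0.54. *fem-2*, a phosphatase that promotes male fate, had a ratio of -0.30. The translational repressor *gld-1* and the CPEB protein gene *fog-1*, which act in the germ line, had ratios of -0.60 and -0.34. None of these 4 passed the test, though the groups were apart for each. The gene apart in the other direction was *fog-2* itself.

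Of the 5 signal elements that were tested, none was above its class median. *ceh-39*, a homeobox X signal element, was 11.2, 12.33 and 7.74 FPKM in hermaphrodites and 13.1, 17.96 and 12.7 FPKM in mixed sex embryos. It was the only signal element whose groups did not overlap. *sex-1*, a nuclear receptor, overlapped, with 78.5, 75.1 and 16.47 FPKM against 44.6, 88.8 and 53.9 FPKM. The list's median relative ratio was -0.37, and -0.01 without hermaphrodite replicate 3, in which *sex-1* was lowest.

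No difference in the dosage compensation genes was detectable with these libraries. Of 9 subunits and H4K20 methylases, all autosomal, none passed the test and none had an unadjusted p under 0.05. None was apart between groups, against 22.1% of all genes. The median relative ratio of these 9 was -0.13, and -0.01 without hermaphrodite replicate 3. The X gene *sdc-2*, which starts dosage compensation in XX embryos, is not among the 9. It overlapped, with 9.45, 13.5 and 7.86 FPKM in hermaphrodites and 13.6, 14.6 and 12.2 FPKM in mixed sex embryos.

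Genes that pattern neurons present in only 1 sex overlapped between the groups as well. Of 9 tested genes for the hermaphrodite-specific HSN and male-specific CEM neurons, the groups overlapped for all, while 22.1% of all tested genes were apart. *unc-86*, a POU homeobox factor needed for HSN, was 83.4, 96.9 and 101 FPKM in hermaphrodites and 86.8, 75.9 and 89.4 FPKM in mixed sex embryos. *egl-1*, the BH3-only activator of cell death that removes HSN in males and CEM in hermaphrodites, was 61.1, 53.7 and 47.7 FPKM against 58.6, 57.8 and 73.2 FPKM. Over 19 cell death genes no member was apart with hermaphrodites higher and 3 with hermaphrodites lower, against 11.1% of all genes, and the median relative ratio was -0.19, or -0.09 without hermaphrodite replicate 3. Of 6 DM domain factors, the family of the male regulator *mab-3*, 3 were apart with hermaphrodites higher, against 11% of all genes, and the median was 0.15. Among these 3 *dmd-6* was 120.1, 137 and 193 FPKM against 109, 101 and 106 FPKM. *mab-3* itself overlapped, with 1.12, 1.80 and 2.00 FPKM in hermaphrodites and 3.08, 2.59 and 1.96 FPKM in mixed sex embryos. None of the 6 passed the test.

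X genes more than 1 log2 unit above the X median numbered 109 (6.35%), and 35 (2.04%) were more than 1 unit below it. For 45 and 21 of them the groups were apart. On autosomes 660 genes (6.76%) were above and 138 (1.41%) below, with 271 and 82 apart. Without hermaphrodite replicate 3 the X counts were 43 above and 33 below, and the autosomal counts 246 and 137. Without that library the excess of genes above the median was smaller in both classes, while the count below changed little.

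Among X genes with an unadjusted p under 0.05, groups apart and a mean of at least 5 FPKM in the higher group, the lowest after *Y62H9A.9* and *xol-1* were *K02D3.1*, *R11.3*, *F46F2.3* and *rgs-9*. *R11.3* was 1.06, 1.41 and 0.96 FPKM in hermaphrodites and 5.32, 6.12 and 6.39 FPKM in mixed sex embryos, a ratio of -2.24 with a standard error of 0.28 (limma, adjusted p = 0.10). *K02D3.1* was 7.54, 7.097 and 1.33 FPKM against 21.96, 27.4 and 20.7 FPKM, with a relative ratio of -2.56. It passed the test without hermaphrodite replicate 3 (limma, adjusted p = 0.029) and with the stage score as a covariate (0.041). *F46F2.3* and *rgs-9*, a regulator of G protein signalling, had relative ratios of -2.14 and -1.51.

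A pair of X genes below that minimum was chosen after their values were seen. *F55G7.1*, with 7 protein-coding genes between it and *Y62H9A.9*, was 0.12, 0.045 and 0.28 FPKM in hermaphrodites and 4.22, 4.68 and 3.50 FPKM in mixed sex embryos, a ratio of -4.13 (limma, adjusted p = 0.12). In early embryos its order was the opposite, 2.23 to 3.35 FPKM in N2 and 0.58 to 1.34 FPKM in mixed sex embryos. *C24H10.4* was listed at 0 in all 3 hermaphrodite libraries and at 2.23, 2.43 and 5.92 FPKM in the mixed sex libraries, and at 0 in every early embryo library.

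Under the same conditions the highest X genes were *Y12A6A.2*, *F44A6.5*, *wrt-2*, *spp-14*, *F22F4.1* and *F53A9.8*. *wrt-2*, which encodes a hedgehog-related protein of the epidermis, was 251, 220.5 and 483 FPKM in hermaphrodites and 162, 80.3 and 94.7 FPKM in mixed sex embryos, a relative ratio of 1.36. *F53A9.8* was the most even, with 13.2, 9.13 and 17.1 FPKM against 4.47, 5.30 and 4.85 FPKM. *spp-14*, a saposin-like gene of a family of antimicrobial proteins, had 43.4, 31.7 and 80.8 FPKM against 25.39, 17.4 and 14.02 FPKM. In all 6 of these genes hermaphrodite replicate 3 was the highest library, and none passed the test.

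On autosomes the largest differences included genes with irregular zeros. *Y94A7B.11* was at 3.70, 8.07 and 3.33 FPKM in hermaphrodites and listed at 0 in the mixed sex libraries (limma, adjusted p = 0.056, the smallest of any gene not called). *B0334.5*, annotated as *nuaf-6*, was 24.6, 5.64 and 14.2 FPKM in hermaphrodites and 0.0024, 0.98 and 0.039 FPKM in mixed sex embryos. In early embryos it was at 0.0012 to 0.0021 FPKM in N2 and 0.60 to 14.1 FPKM in mixed sex embryos, the opposite order. The chemoreceptor gene *srbc-15* was 3.23, 2.56 and 2.86 FPKM in hermaphrodites and listed at 0 in mixed sex embryos, and *srh-234* was listed at 0 in hermaphrodites and at 2.05, 1.53 and 2.87 FPKM in mixed sex embryos. Both lie on chromosome V.

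Among autosomal genes detected in both groups, *col-160*, a cuticle collagen gene, was 1.23, 0.76 and 1.48 FPKM in hermaphrodites and 8.66, 4.92 and 3.90 FPKM in mixed sex embryos, a ratio of -2.14. *F58E6.7*, annotated as *hrg-3*, a carrier of maternal haem, was 2.16, 3.77 and 1.57 FPKM against 7.74, 6.12 and 14.5 FPKM. Both are on chromosome V, and neither passed the test.

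A run of neighbours of *F47B8.10* on chromosome V was also lower in hermaphrodites, and was looked at after these values were seen. *cyn-1*, a cyclophilin gene with 3 protein-coding genes between it and *F47B8.10*, was 182, 171 and 158 FPKM in hermaphrodites and 311, 301 and 333 FPKM in mixed sex embryos (ratio -0.83, limma adjusted p = 0.059). *Y49A3A.1*, annotated as *cept-2*, a phospholipid synthesis enzyme, was 25.7, 29.6 and 22.002 FPKM against 60.1, 76.0 and 56.2 FPKM (ratio -1.25, limma adjusted p = 0.091). *Y49A3A.3* was 9.80, 7.60 and 7.45 FPKM against 15.4, 17.2 and 17.1 FPKM. The gene between them, *vha-13*, a subunit of the proton pump, had a ratio of -0.58 and overlapped between groups. In early embryos *cyn-1* was 44.2 to 64.0 FPKM in N2 and 116 to 159.9 FPKM in mixed sex embryos. The 6 genes on the other side of *F47B8.10* were near 0 or overlapped.

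The ribosomal proteins were the family with the most even difference. All 78 tested members had a ratio above the median of their class, and for 54 the groups were apart with hermaphrodites higher, none with hermaphrodites lower, against 11% of all genes. 49 had an unadjusted p under 0.05 against 7.14% of all genes, and none passed after adjustment. The median relative ratio was 0.39, and 0.32 to 0.50 with 1 library left out. The list score was 0.31, -0.03 and 0.27 in hermaphrodites and -0.12, -0.22 and -0.20 in mixed sex embryos.

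*rpl-36*, of the large subunit, was 7954, 6351 and 7729.7 FPKM in hermaphrodites and 5618, 4526 and 4094 FPKM in mixed sex embryos, a ratio of 0.70. Every hermaphrodite library was above every mixed sex library. The end of the range with the smallest difference was *rpl-24.2*, with a relative ratio of 0.01, and *rps-28*, with 0.09. In early embryos the median relative ratio of the ribosomal proteins was 0.01. The 8 subunits of the cytosolic chaperonin, the *cct* family, had a smaller median of 0.20, and 0.10 without hermaphrodite replicate 3. All 8 were above 0 and 3 were apart, against 11% of all genes.

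**Figure D3:**
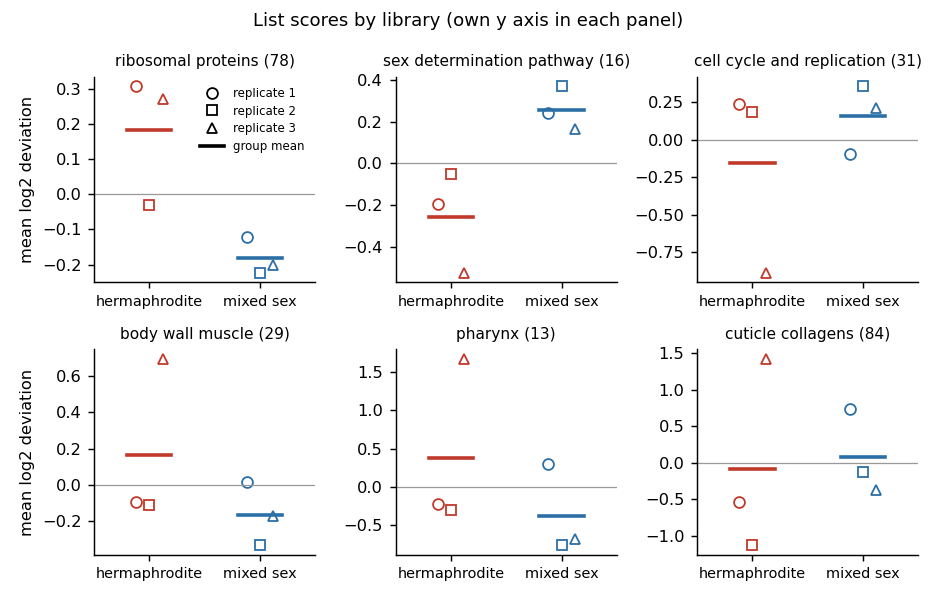
List score, the mean log2 deviation of the members, of 6 gene lists in each of the 6 comma libraries, with bars at the group means and a separate y axis in each panel. The ribosomal protein scores do not overlap between groups, whereas hermaphrodite replicate 3 is far above the other libraries for muscle and pharynx and far below them for the cell cycle.

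Lists of differentiated tissues had medians above 0 with all libraries and close to 0 without hermaphrodite replicate 3. The pharynx list had a median relative ratio of 0.64 over 13 genes, and -0.00 without that library. The medians changed in the same way for 29 body wall muscle genes, from 0.36 to 0.04, for 13 intestine genes, from 0.33 to -0.01, and for 25 neuronal genes, from 0.38 to 0.07. No member of these 4 lists passed the test.

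Of the 29 genes in the muscle list 7 were apart with hermaphrodites higher, against 11% of all genes, and none with hermaphrodites lower. *deb-1*, which encodes vinculin of the muscle attachments, was 309, 289 and 424 FPKM in hermaphrodites and 268, 187 and 242 FPKM in mixed sex embryos. *mup-2*, troponin T, on the X, was 249, 191 and 401 FPKM against 195, 140 and 136 FPKM, and was apart only after scaling of the libraries. In the intestine the peptide transporter gene *pept-1*, on the X, was 24.4, 26.2 and 58.2 FPKM against 24.4, 13.1 and 14.1 FPKM, with replicate 3 far above the rest. The epidermis and junction genes had a median of 0.03 over 18 genes, and -0.08 without replicate 3.

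Lists of early development had medians below 0, which were smaller or turned without replicate 3, and none of their members passed the test. Of 26 maternal embryo factors 25 had a relative ratio below 0, with a median of -0.34, and -0.13 without replicate 3. All 31 cell cycle and replication genes were below 0, with a median of -0.26, but of 0.03 without replicate 3. For 68 histone genes the median was -0.22, and 0.08 without that library. The stage score of replicate 3 was 2.15, and how much of these differences it accounts for was not tested beyond leaving the library out.

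Among the histones the H2A gene *his-35* went the other way. It was 582, 508 and 554 FPKM in hermaphrodites and 387, 269 and 236 FPKM in mixed sex embryos, a ratio of 0.97 with a standard error of 0.19 that did not pass limma (adjusted p = 0.31). Hermaphrodite replicate 3 did not stand out for this gene.

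**Figure D4:**
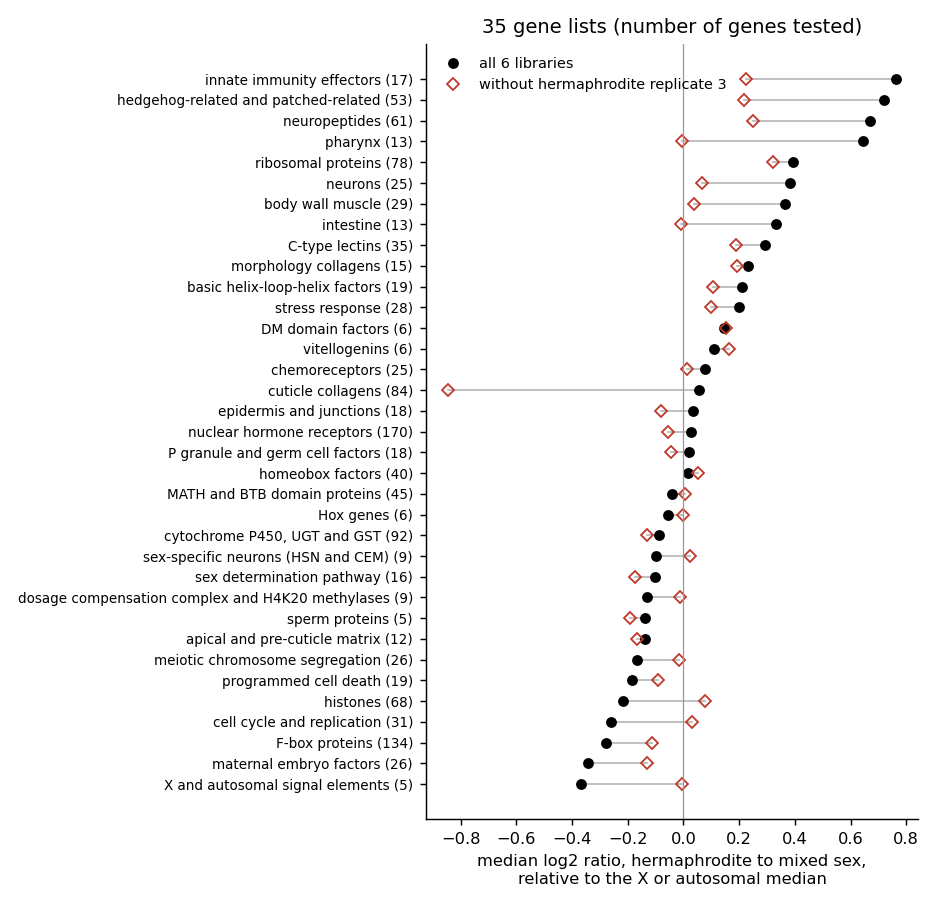
Median relative log2 ratio of each gene list in all 6 comma libraries and without hermaphrodite replicate 3. The pharynx list moves from 0.64 to -0.00 and the cuticle collagens from 0.06 to -0.85, whereas the ribosomal proteins move from 0.39 to 0.32.

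The cuticle collagens, the exoskeleton proteins made in waves before each cuticle, were the list most changed by that library. Over 84 tested genes the median relative ratio was 0.06, and -0.85 over the 77 genes tested without replicate 3. The list score was -0.53, -1.13 and 1.42 in hermaphrodites and 0.74, -0.13 and -0.37 in mixed sex embryos. Hermaphrodite replicates 1 and 2 were thus the lowest of the 6 libraries and replicate 3 the highest. The groups were apart for 2 genes with hermaphrodites higher and 13 with hermaphrodites lower, against 11% and 11.1% of all genes. The collagen gene *col-19*, a marker of cuticles made after hatching, was 0.20, 0.22 and 0.07 FPKM in hermaphrodites and 1.38, 0.93 and 3.11 FPKM in mixed sex embryos, and its part in the collagen result was not tested.

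The collagens that shape the body differed less between settings. Of 15 tested morphology collagens 5 were apart with hermaphrodites higher and 1 with hermaphrodites lower, against 11% and 11.1% of all genes. Their median was 0.23, and 0.19 without replicate 3. *lon-3* was 14.8, 11.8 and 21.1 FPKM in hermaphrodites and 8.32, 4.99 and 4.57 FPKM in mixed sex embryos. *dpy-17* was among the highest genes of the list, with 7832, 5868 and 7176 FPKM against 5327, 4688 and 5014 FPKM. Only 10 of the 15 had a relative ratio above 0. Among the others *dpy-4* was at 0.67, 0.44 and 1.31 FPKM against 6.61, 2.24 and 2.01 FPKM, and *sqt-1* at 1.29, 0.70 and 0.36 FPKM against 3.68, 1.61 and 0.84 FPKM. The list scores overlapped, at 0.08, -0.31 and 0.24 in hermaphrodites and 0.33, -0.17 and -0.18 in mixed sex embryos. None passed the test. The apical and pre-cuticle matrix genes, which line the embryo before the cuticle, had a median of -0.14 over 12 genes.

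The hedgehog-related and patched-related genes, secreted or membrane proteins of the epidermis, had a median relative ratio of 0.72 over 53 genes, with 45 above 0. For 9 the groups were apart, all higher in hermaphrodites, against 11% of all genes. Without replicate 3 the median was 0.22. The neuropeptide genes had a median of 0.67 over 61 genes, with 53 above 0, and 0.25 without replicate 3. 7 neuropeptide genes were apart with hermaphrodites higher and 1 with hermaphrodites lower, against 11% and 11.1% of all genes. In both lists the sign of the median stayed with every library left out, at 0.22 to 1.05 and 0.25 to 1.01. The library scores overlapped in both, however. Mixed sex replicate 1, at 0.17 and 0.21, lay above hermaphrodite replicates 1 and 2. For neuropeptides the 15 X genes all lay above the X median, with a median of 0.96 relative to it, against 0.61 for 46 autosomal genes. Without replicate 3 these were 0.26 and 0.24, so that the larger X value rested on it.

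The median was 0.03 over 170 nuclear hormone receptors, 0.02 over 40 homeobox factors, 0.21 over 19 basic helix-loop-helix factors and -0.06 over the 6 Hox genes. Without replicate 3 these were -0.06, 0.05, 0.11 and 0.00, and the basic helix-loop-helix median was 0.01 without mixed sex replicate 2. Nuclear hormone receptors were apart for 18 genes with hermaphrodites higher and 23 with hermaphrodites lower, or about the share of all genes. The homeobox list had library scores that did not overlap, but its median with 1 library left out ranged from -0.07 to 0.05.

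The F-box proteins, substrate receptors of ubiquitin ligases, form a large family in nematodes. Of 134 tested members none passed the test, and 40 lay above their class median. 25 were apart with hermaphrodites lower, against 11.1% of all genes, and 4 with hermaphrodites higher, against 11%. The list scores overlapped between groups, and the median was -0.28, and -0.11 without replicate 3. Of the cytochrome P450, UGT and GST genes, enzymes of detoxification, 19 of 92 were apart with hermaphrodites lower and 7 with hermaphrodites higher. The shares over all genes were 11.1% and 11%. None of the 92 passed the test, and the median was -0.09, or -0.13 without replicate 3. *ugt-12* was 1.75, 1.95 and 1.46 FPKM in hermaphrodites and 4.297, 4.03 and 4.9995 FPKM in mixed sex embryos. *ugt-13*, also on chromosome V, was 0.82, 0.89 and 0.33 FPKM against 2.56, 1.77 and 2.08 FPKM. Neither passed the test.

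Of the families of defence and sensing few members were expressed. Of 254 C-type lectin genes 35 were tested, with 1 call, *clec-209*, and a median of 0.29, or 0.19 without replicate 3. It was 0.11 without mixed sex replicate 2 and 0.68 without hermaphrodite replicate 2. Of 71 innate immunity effectors 17 were tested, with a median of 0.76, and 0.23 without replicate 3. Of 1335 chemoreceptor genes 25 were tested, with 5 apart higher and 3 apart lower, against 11% and 11.1% of all genes. Their median was 0.08, or 0.01 without replicate 3. The MATH and BTB domain genes had a median of -0.04 over 45 genes, and 0.01 without replicate 3. The 28 stress response genes had a median of 0.20, and 0.10 without it. The small heat shock gene *hsp-16.41* was 3.96, 5.68 and 2.61 FPKM in hermaphrodites and 1.82, 0.49 and 1.81 FPKM in mixed sex embryos.

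Germ line functions showed no common direction. For 26 genes of meiotic chromosome segregation the median was -0.17, and -0.01 without replicate 3, *him-5* being the only call. P granule and germ cell factors had a median of 0.02 over 18 genes, and -0.04 without replicate 3. Of 58 sperm protein genes only 5 were tested, with a median of -0.14. *msp-76* was 1.46, 0.18 and 0.44 FPKM in hermaphrodites and 1.72, 2.13 and 2.86 FPKM in mixed sex embryos. The vitellogenins, yolk proteins of the adult intestine, were low, with *vit-6* at 8.89, 6.76 and 6.71 FPKM in hermaphrodites and 9.66, 11.3 and 13.3 FPKM in mixed sex embryos. *vit-5*, on the X, had the opposite order, with 10.2, 6.32 and 7.49 FPKM against 4.71, 4.85 and 5.62 FPKM.

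Genes were also grouped by the letters of their symbols, which gave 97 families of at least 8 tested genes. The median relative ratio was above 0 in 53. The library scores did not overlap for 13 families with hermaphrodites higher, of which 10 kept a median above 0 with each library left out, and for 7 with mixed sex embryos higher, which all kept a median below 0. The 3 families of the first kind without such a median were *him*, *tag* and *ceh*.

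The highest families were *grl*, *flp*, *lec*, *glb*, *grd* and *nlp*, and the library scores of each overlapped between groups. The hedgehog-related *grl* genes had a median of 1.19, the FMRFamide-like peptides *flp* 0.90 and the galectins *lec* 0.83. Without replicate 3 these were 0.32, 0.37 and 0.40. The globins *glb* had 0.81, and 0.12 without replicate 3. The hedgehog-related *grd* genes went from 0.76 to -0.39 and the neuropeptide-like *nlp* genes from 0.69 to 0.20. The heat shock family *hsp* had 0.44 and 0.30, with library scores of 0.29, 0.27 and 0.08 in hermaphrodites and -0.14, -0.49 and -0.01 in mixed sex embryos. In early embryos its median was -1.19. The early library scores were -0.37, -0.52 and -0.70 in N2 and 0.17, 0.01 and 1.41 in mixed sex embryos. Early mixed sex replicate 3 was thus far above the other libraries.

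The lowest families were the acyltransferases *acl* at -0.33, the F-box genes *fbxb* at -0.31 and *fbxa* at -0.28, the SCF ligase components *skr* at -0.29, the enoyl-CoA hydratases *ech* at -0.27 and the glucuronosyltransferases *ugt* at -0.26. Without replicate 3 *skr* was at 0.19 and *fbxb* at 0.02, whereas *ugt* was at -0.27, *ech* at -0.24, *fbxa* at -0.18 and *acl* at -0.17. Within *ech*, *ech-6* went the other way, at 398, 424 and 470 FPKM in hermaphrodites and 275, 303 and 114 FPKM in mixed sex embryos.

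The sex ratio at the comma stage was then compared with that of early embryos of the same strains, in a limma fit over 12 libraries with an interaction term. The ratio differed for 899 of 11437 genes (7.86%), 696 with the comma ratio higher and 203 with it lower. Of 1671 X genes 156 were higher and 49 lower, and of 9766 autosomal genes 540 and 154. The median X ratio was 0.04 in early embryos and 0.22 at the comma stage, against -0.02 and 0.03 on autosomes. These medians are over genes kept by their mean over the early and comma groups. The study, with its own gene filter and normalization, reported a higher early X median and a slight repression of the X from early to comma embryos. The source of this disagreement was not tested.

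The groups differed in their muscle markers as early embryos. The summed level of 4 muscle markers was 28.5 to 42.9 FPKM in early N2 and 54.01 to 59.9 FPKM in early mixed sex embryos, which did not overlap. The early sums of the epidermis, intestine, pharynx and neuron markers overlapped. So did those of the maternal factors, at 3330 to 4955 FPKM in N2 and 3698 to 4131 FPKM in mixed sex embryos. Over all genes 696 of 11437 had a higher comma ratio. Of the 29 muscle genes 14 had a higher comma ratio, with a median relative ratio of -1.23 in early embryos. Of 14 morphology collagens 8 and of 12 apical matrix genes 7 had a higher comma ratio, with early medians of -1.43 and -1.36. The part of these early differences in the interaction was not tested.

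Among the sex genes, *xol-1* had a comma ratio lower than its early ratio by 2.96, and *tra-2*, *sdc-2* and *ceh-39* were lower by 0.92, 1.29 and 1.06 in the same fit. *her-1* was not among the 899 genes, with 7.32 to 9.48 FPKM in early N2 and 85.1 to 134 FPKM in early mixed sex embryos. Of the 78 ribosomal proteins 1 had a higher comma ratio, against 696 of all 11437 genes.

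**Figure D5:**
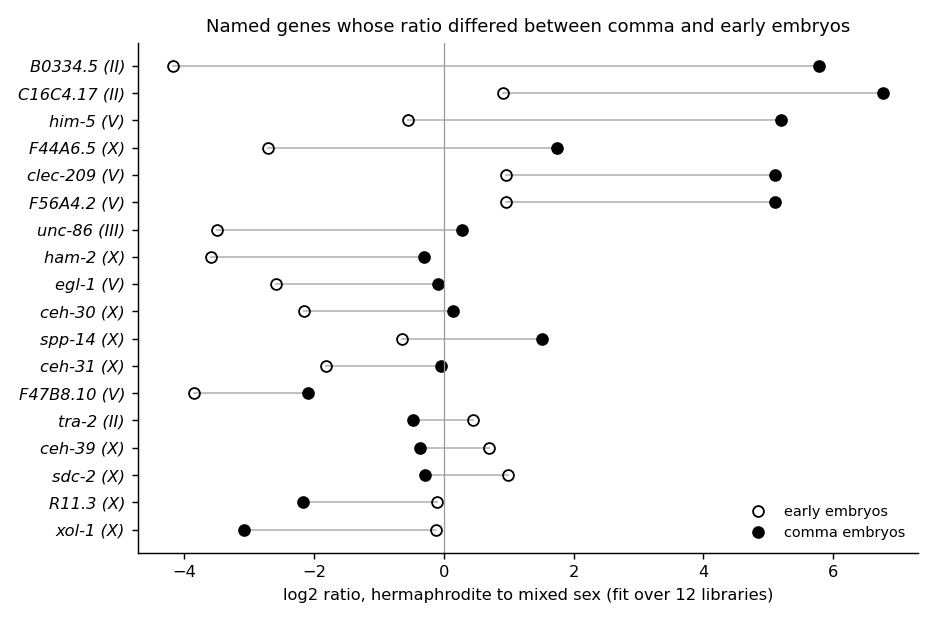
Log2 ratio of hermaphrodite to mixed sex at the early embryo and comma stages for 18 named genes whose ratio differed between the stages. Genes named only as ends of lists or families are left out. Open circles are early and filled circles comma embryos, from a limma fit over 12 libraries. *xol-1* lies near 0 in early embryos and furthest below 0 at the comma stage, and *F47B8.10* lies below 0 at both.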

How the data were processed

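RNA was extracted with Trizol, poly(A) RNA was made into stranded libraries and sequenced as single-end reads. The authors aligned the reads to the WS220 genome and deposited FPKM per gene, estimated by Cufflinks with an annotation, in 1 table of the whole series. The submitters' processing notes name Cufflinks 2.2.0, HTSeq 0.6.0 and CASAVA 1.8. FPKM are not counts, so no count model was run, and total depth is unknown. Of the per-sample columns 32 were used here and 60 were not. An N2 and a mixed sex L1 library held identical values in 20376 of 20376 genes, and L1 libraries entered no comparison of the sexes.

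Libraries were brought to 1 scale with median-of-ratios factors and tested as log2(FPKM + 0.1) with limma 3.58.1 in R 4.3.3, with an intensity trend, over 11473 genes whose mean over groups exceeded 1 FPKM. Calls had a Benjamini-Hochberg adjusted p under 0.05. The script was tested on simulated data. Chromosomes came from RefSeq by locus tag for 19899 genes and by symbol for 5, and 507 were not placed. Named genes were those called, the 6 highest and 6 lowest relative ratios on the X and on autosomes with an unadjusted p under 0.05, groups apart and a mean of at least 5 FPKM in the higher group, members of the sex and dosage compensation lists, and the ends of other lists. The comparison, gene lists and families were chosen with earlier results of these data known. In all 19 other settings covered pseudocount, filters, scaling, each library left out, weights, trend and pairing, and 2 more were chosen after seeing the data. Labels do not say whether replicates were separate cultures beyond calling them biological replicates, so p-values measure the spread between these libraries.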

Additional observations from a re-analysis of the deposited data

Results flagged for a closer look

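The ratio of hermaphrodite to mixed sex differed between comma and early embryos for 19 of the genes named in the report, by the interaction term of limma with an adjusted p under 0.05. Genes named only as ends of lists or families are not counted among them. The values are the comma log2 ratio minus the early log2 ratio.

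Of the sex and dosage compensation genes, 4 had a lower ratio at the comma stage. The difference was -2.96 for *xol-1*, -1.29 for *sdc-2*, -1.06 for *ceh-39* and -0.92 for *tra-2*.

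The genes of sex-specific neurons differed through their early libraries. The difference was 3.78 for *unc-86*, 3.29 for *ham-2*, 2.49 for *egl-1*, 2.30 for *ceh-30* and 1.77 for *ceh-31*, and the early ratio was below 0 for each, at -3.50, -3.59, -2.58, -2.16 and -1.82. Early mixed sex libraries also had higher sums of the muscle markers, while the other marker sums overlapped. The part of the muscle marker difference in these values was not tested.

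Genes called in comma embryos differed by 5.86 for *C16C4.17*, 5.74 for *him-5*, 4.14 for *F56A4.2*, 4.15 for *clec-209* and 1.76 for *F47B8.10*. The last was lower in hermaphrodites at both stages and more so in early embryos, at -3.86. Among other genes the difference was 9.95 for *B0334.5*, 4.45 for *F44A6.5*, 2.16 for *spp-14*, -2.06 for *R11.3* and -5.67 for *F55G7.1*, the last chosen after its values were seen.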

How the results depend on the processing

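The count of changed genes, 8, was 7 and 6 with a pseudocount of 1 and 0.01 and 8 without scaling, with autosomal scaling, with a robust fit and with the X score subtracted. It was 15 with no expression filter, 5 with a mean above 5 FPKM, and 0 when both group means had to exceed 1 FPKM, where limma still gave 1230 genes at an unadjusted p under 0.05. It was 23 without the trend, 25 with a spread shared with other stages (5 of the 8 among them) and 48 with library weights, which did not converge. Of the alternatives added after seeing the data, the stage score as a covariate gave 71 genes, all 8 among them, and genes above 0 in every library gave 4. With 1 library left out the count was 2 to 12, with 2 without hermaphrodite replicate 1, hermaphrodite replicate 2 or mixed sex replicate 3, and 12 without hermaphrodite replicate 3. The causes were not tested. The replicate block gave 1 gene. Correlations of same-numbered libraries were -0.395, 0.334 and -0.194, without a common sign. Whether same-numbered libraries shared more than a number was not tested.

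The X shift was 0.12 to 0.27 over the libraries left out. The interaction count of 899 was 502 with the filter in each group, 4009 with library weights and 459 to 697 over the libraries left out, with 459 without mixed sex replicate 2 and 503 without mixed sex replicate 3. No called gene changed sign, but 20 of 47 list and family medians did in at least 1 setting, 14 of them without hermaphrodite replicate 3. Of the single genes 30 values gained and 47 lost a call, and 40 of 705 list and family medians moved by more than the spread.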
